A study of Mus musculus with 24 samples.

Results

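Hearts of NZB:C57 mice, which combine the nuclear genome of the NZB strain with mitochondrial DNA (mtDNA) of C57 mice, were set against hearts of NZB:NZB mice, in which both genomes are NZB. The libraries were chosen by their labels and make up 6 of the 24 of the series, 3 of each genotype. NZB:C57 is a conplastic line, made by 10 backcross generations that put one strain's nucleus on the other strain's mtDNA, and NZB:NZB is the parental combination. The other heart libraries came from BL/6J:NZB and BL/6J:C57 mice, which carry the C57BL/6 nucleus with NZB or C57 mtDNA, and livers of all 4 genotypes were sequenced too. All animals were males aged 10 weeks. RNA came from left ventricle with an integrity score of at least 7.9, and RNA from 4 of the 12 animals of a genotype was mixed into each of 3 pools, so a replicate is a pool and p-values measure the spread between pools. The same animals may have given the heart and the liver pools. In tissue RNA, fewer cells of a type and less RNA per cell cannot be told apart.

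Most of the volume of the left ventricle is taken up by cardiomyocytes, muscle cells whose sarcomeres slide thick myosin filaments along thin actin filaments. Calcium released from the sarcoplasmic reticulum starts each contraction, and fatty acids burnt in densely packed mitochondria supply most of the ATP. The mtDNA encodes a small set of respiratory chain proteins, its ribosomal RNAs and transfer RNAs, while nuclear genes encode the remaining subunits and all that copies, reads and repairs mtDNA. A line that joins the nucleus of one strain to the mtDNA of another tests whether the 2 genomes work together as well as those that evolved in one strain. Transcripts encoded by mtDNA were not analysed here, so the measurements below are of nuclear genes.

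The promoters of 3 genes that were much higher in NZB:C57 hearts are shown first, because the difference centred on genes of this kind: Myh6, the main myosin heavy chain of the adult mouse ventricle, Trim63, a ubiquitin ligase of the sarcomere, and Actc1, cardiac actin. Each sequence of 300 bases spans the transcript start, most of it upstream, and comes from RefSeq on GRCm38.p6. Capitals mark the TATAAA box, the CATTCC element read by TEAD factors, the GATA site AGATAA, the MEF2 site and the CArG box of serum response factor, on either strand. Myh6 is at chr14:54966558-54966857 on the minus strand, Trim63 at chr4:134314870-134315169 on the plus strand and Actc1 at chr2:114052826-114053125 on the minus strand.
Myh6: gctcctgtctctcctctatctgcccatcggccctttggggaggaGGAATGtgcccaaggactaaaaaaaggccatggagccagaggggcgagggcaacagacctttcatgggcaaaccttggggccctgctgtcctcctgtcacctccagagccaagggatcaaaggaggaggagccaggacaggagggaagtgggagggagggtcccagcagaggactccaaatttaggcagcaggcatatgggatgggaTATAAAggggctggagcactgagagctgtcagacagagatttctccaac
Trim63: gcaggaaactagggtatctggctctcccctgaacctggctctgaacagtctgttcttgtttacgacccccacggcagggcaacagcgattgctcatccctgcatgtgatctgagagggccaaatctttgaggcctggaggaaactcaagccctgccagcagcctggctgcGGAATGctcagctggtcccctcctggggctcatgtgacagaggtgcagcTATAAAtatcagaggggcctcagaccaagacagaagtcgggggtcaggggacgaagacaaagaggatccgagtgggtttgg
Actc1: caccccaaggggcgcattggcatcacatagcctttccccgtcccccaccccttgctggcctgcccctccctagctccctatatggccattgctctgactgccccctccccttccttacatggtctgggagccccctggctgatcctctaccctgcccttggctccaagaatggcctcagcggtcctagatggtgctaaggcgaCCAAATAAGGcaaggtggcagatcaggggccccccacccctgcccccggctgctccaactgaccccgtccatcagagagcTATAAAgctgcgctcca

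These matches are descriptions of letters and not of bound sites. Over all promoters of this length, the MEF2 site was found in 24 of the 1695 promoters of genes called higher (1.42%), in 2 of the 397 promoters of genes called lower (0.504%) and in 43 of the 11218 promoters of genes tested and not called (0.383%). It was in 0.557% of the 32851 promoters of the reference table. The CArG box was in 2.54% of promoters of genes called higher, 2.77% of those of genes called lower and 1.11% of those not called, against 1.63% in the whole table. For TATAAA the shares were 10.7%, 9.82% and 6.94%, against 13.6% in the whole table. For CATTCC they were 15.3%, 14.6% and 12.1%, against 14.7%, and for AGATAA 8.55%, 5.04% and 6.2%, against 11.2%. The E-box CANNTG, which is not capitalised above, was in 69.4%, 61.7% and 63.5%, against 72.3%. Genes called higher whose promoters hold the MEF2 site include Mybpc3, a myosin-binding protein, and Ttn, the giant spring of the sarcomere.

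The hearts were recovered at 4750330 to 12949956 reads in NZB:C57 libraries and 3714278 to 8308369 in NZB:NZB libraries. All 6 held the 13 cardiomyocyte markers. Their summed value ran from 287519 to 293848 in NZB:C57 hearts and from 36298 to 38229 in NZB:NZB hearts, against at most 55015 in BL/6J:NZB hearts and 54734 in BL/6J:C57 hearts. Hepatocyte markers summed to 114 to 203 in NZB:C57 hearts and 181 to 193 in NZB:NZB hearts. The mtDNA labels can be set beside Gm13340, a nuclear copy of mtDNA sequence, on which reads from mtDNA may be counted. Its value was 19.4 to 28.4 in NZB:C57 hearts and 33.3 to 39.2 in NZB:NZB hearts, against 65.9 to 110 in BL/6J:NZB and 1.09 to 1.48 in BL/6J:C57 hearts, so within the NZB nucleus it did not separate the mtDNAs as it did within the BL/6J nucleus. The mtDNA of the NZB:C57 hearts therefore rests on the labels. Myh6, Mb and Actc1 together made up 17.8% to 18.1% of the summed values in NZB:C57 hearts, 2.76% to 2.84% in NZB:NZB hearts, 3.59% to 3.70% in BL/6J:NZB hearts and 3.78% to 3.94% in BL/6J:C57 hearts.

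NZB:C57 hearts differed from NZB:NZB hearts mostly by higher values. Values are read counts normalised by the authors, tested with limma on log2(value + 1). Of 13803 genes tested, 13.0% were called higher in NZB:C57 hearts and 2.89% lower at an adjusted p under 0.05. Changes upward were also larger: 757 of the genes called higher and 26 of those called lower differed by more than a factor of 2, and 28 and 1 by more than a factor of 8. The 3 NZB:C57 libraries lay above all 9 other hearts of the series for 1463 of the 1791 genes called higher, and below all 9 for 132 of the 399 called lower. Over all genes tested, 12.9% lay above and 2.44% below all 9. The calls and these positions come from the same NZB:C57 libraries. edgeR's quasi-likelihood test on recovered reads also called 96.5% of the genes higher and 98.2% of the genes lower, and DESeq2 87.4% and 67.2%. These counts rest on the authors' scaling, under which the summed values of NZB:C57 hearts were 1.63 times those of NZB:NZB hearts (two-sided exact permutation test, p = 0.1, the smallest that 3 against 3 allow). Scaled to library totals, with the median of all genes at -0.64 on the log2 scale, 807 genes were called higher and 10240 lower.

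For most called genes the liver of the same genotypes differed in the opposite direction. Of the 1791 genes called higher in heart, 977 passed the filter on low values in liver, 960 of them had the opposite sign there (98.3%), and 350 were called lower in liver, where 4.44% of all 13159 genes tested were. Of the 399 called lower in heart, 353 were tested in liver, 348 had the opposite sign (98.6%) and 59 were called higher in liver, where 3.65% of all genes were, for 8.09% called in either direction. In all, 1064 genes were called in liver, 584 of them lower. The 350 became 185, 208 and 220 without NZB:NZB liver 1, 2 and 3, the 59 became 33, 38 and 39 without the same livers and 39 without NZB:C57 liver 2, and under library totals the counts were 668 and 31. edgeR in liver gave 246 and 55. The 3 livers of 1 genotype alone could bring a gene past the filter on low values. With no such filter the counts were 348 and 51, and with a filter of at least 5 they were 244 and 57. The part of the filter in the share of opposite signs was not tested. Among genes not called in heart, 80.5% of the 10733 tested in liver had opposite signs, so opposite signs prevailed over the whole table. One gene called higher in heart was called higher in liver as well, by limma, edgeR and DESeq2 alike. No gene called lower in heart was called lower in liver by any of the 3 tools, and none reached an unadjusted p under 0.05 there with limma.

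**Figure D1:**
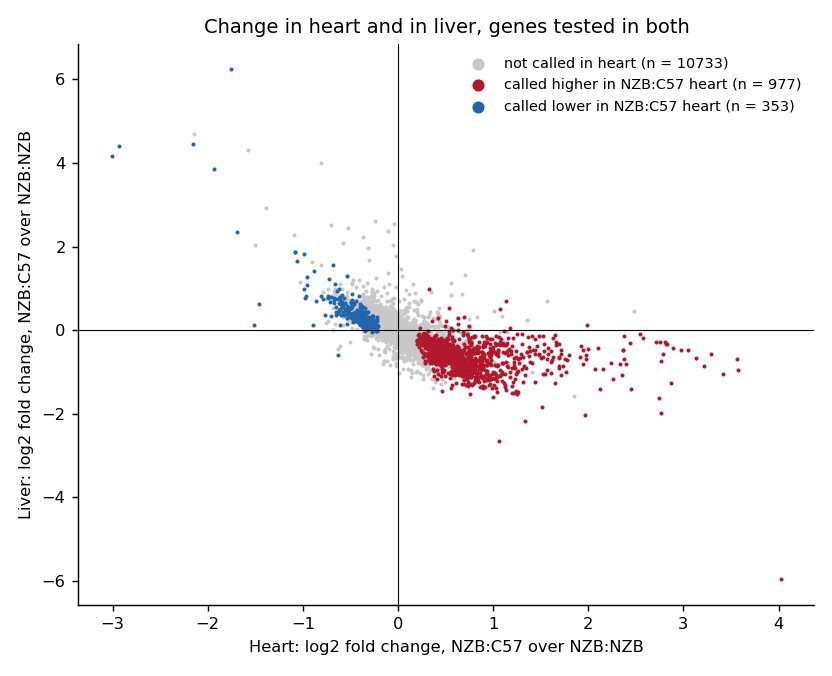
The scatter plots each gene tested in both tissues by its log2 fold change of NZB:C57 over NZB:NZB in heart (x axis) and in liver (y axis), with genes called higher in heart, called lower in heart and not called in heart in separate colours. Of the 977 genes called higher in heart, 960 lie below the liver zero line, and of the 353 called lower, 348 lie above it.

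The gene with the same call in both tissues was Myom2, which encodes a protein of the sarcomere's M-band (chr8:15057653-15133541). It measured 935, 926 and 851 in NZB:C57 hearts against 663, 785 and 716 in NZB:NZB hearts, without overlap (log2 fold change 0.33, SE 0.08, limma adjusted p = 0.00714). In liver its log2 fold change was 0.98, adjusted p = 0.00173, on values of 26.2, 33.0 and 29.0 in NZB:C57 livers against 17.1, 11.2 and 15.5 in NZB:NZB livers. BL/6J hearts ran from 719 to 908 and overlapped both NZB genotypes. Under library totals the heart value of Myom2 turned to -0.38.

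How far a gene rose in NZB:C57 hearts followed how much higher that gene was in heart than in liver. This ratio was taken from the 6 BL/6J hearts and 6 BL/6J livers, which are not among the libraries compared. Among the 152 genes at least 6 log2 units higher in BL/6J heart than liver, 140 were called higher in NZB:C57 hearts (92.1%), 4 lower, and the median log2 fold change was 1.28. In the next groups the median was 0.75 for ratios of 4 to 6, 0.35 for 2 to 4, 0.10 for 1 to 2 and 0.01 for 0 to 1. Genes at least as high in liver as in heart had medians between -0.11 and -0.06, and 1.96% of the 153 most liver-restricted genes were called higher. The liver comparison of the same genotypes ran the other way, from a median of -0.48 among the most heart-restricted genes to 0.34 among the most liver-restricted. In liver 80 of the 152 most heart-restricted genes were tested, and 149 of the 280 with ratios of 4 to 6. A gene could pass the filter on low values through the 3 livers of 1 genotype alone. The part of the filter in these liver medians was not tested. With the BL/6J nucleus, C57 over NZB mtDNA gave heart medians along the same ratio of -0.38 in the most liver-restricted group, -0.058 and -0.019 in the next groups, 0 at ratios of 0 to 1 and 0.10 in the most heart-restricted group. The BL/6J hearts of that comparison are also among the libraries that set the ratio. The summed hepatocyte markers were 48.6 to 59.1 in BL/6J:C57 hearts and 68.3 to 322 in BL/6J:NZB hearts, and their part in the BL/6J medians was not tested.

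**Figure D2:**
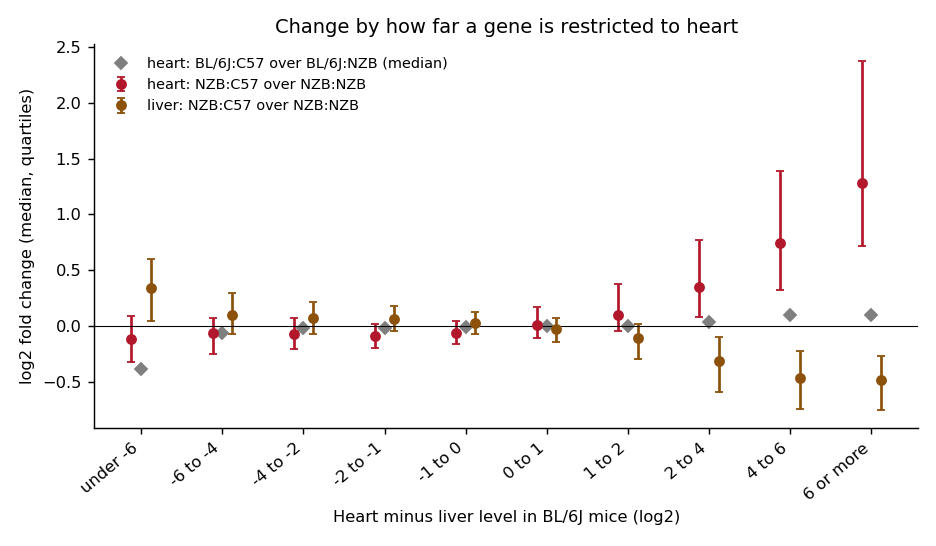
Genes are grouped along the x axis by the log2 ratio of BL/6J heart to BL/6J liver, and the y axis gives the median log2 fold change of NZB:C57 over NZB:NZB in heart and in liver, with the middle 50% of genes. The heart medians climb to 1.28 in the most heart-restricted group while the liver medians descend to -0.48. That group holds 152 genes in heart and the 80 of them that were tested in liver.

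The 4 heart-restricted genes that were called lower were Smyd1, Myh7b, Lrrc14b and 1110002E22Rik, named after their values were seen. Smyd1 encodes a methyltransferase that serves myosin assembly (chr6:71213940-71322233), and its values were 374, 368 and 371 in NZB:C57 hearts against 488, 471 and 477 in NZB:NZB hearts (log2 fold change -0.37, SE 0.06, limma adjusted p = 0.000219). All 3 NZB:C57 hearts lay below the 9 others, and liver differed by 0.53 (adjusted p = 0.0788), opposite in sign and not called. Myh7b, a myosin heavy chain gene that hosts a microRNA, had 63.5, 68.3 and 56.3 in NZB:C57 hearts against 105, 104 and 97.3 in NZB:NZB hearts, without overlap (log2 fold change -0.70, SE 0.12, limma adjusted p = 0.000252), and was not tested in liver. Lrrc14b, at -0.72 (SE 0.08, adjusted p = 1.33e-06), shares 99% of its sequence words with another annotated gene, so its reads cannot be assigned to it alone. Neither Lrrc14b nor 1110002E22Rik was tested in liver. Myh7b had 59.9, 71.0 and 46.6 in BL/6J:C57 hearts against 103, 92.8 and 107 in BL/6J:NZB hearts, again without overlap. Its difference by mtDNA label changed by 0.08 between the nuclei, NZB minus BL/6J (limma adjusted p = 0.834). For Smyd1, Lrrc14b and 1110002E22Rik that change was -0.65, -0.75 and -0.75, each past the threshold. A further 8 heart-restricted genes were not called, among them Tpm1, the main tropomyosin, and Eno3, muscle enolase. Tpm1 had 9402, 9430.4 and 9201 in NZB:C57 hearts against 8357, 7824 and 7949 in NZB:NZB hearts, apart but not past the threshold (log2 fold change 0.22, SE 0.09, limma adjusted p = 0.143), with -0.33 (adjusted p = 0.256) in liver. Eno3 had 1069.8, 1060.5 and 1011 in NZB:C57 hearts against 1153, 1001 and 949 in NZB:NZB hearts, with overlapping libraries (log2 fold change 0.02, SE 0.08, limma adjusted p = 0.923), and its liver difference of -0.02 was opposite and not called.

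At the other end of the ratio, 9 of the 348 genes at least 4 log2 units higher in BL/6J liver than heart were called higher in NZB:C57 hearts (2.59%, against 13.0% of all genes), and both described here were chosen after their values were seen. Inmt, a methyltransferase of lung and liver, had 3.31, 5.03 and 3.31 in NZB:C57 hearts against 0.635, 0.87 and 1.69 in NZB:NZB hearts (log2 fold change 1.26, SE 0.20, limma adjusted p = 0.00014), and liver was called in the opposite direction (-1.47 (adjusted p = 0.00277)). Hamp2, a relative of the iron hormone hepcidin, had 50.5, 54.7 and 63.8 in NZB:C57 hearts against 24.1, 22.3 and 20.3 in NZB:NZB hearts (log2 fold change 1.30, SE 0.19, limma adjusted p = 5.96e-05), and was opposite and not called in liver (-0.34). The groups did not overlap for either gene. BL/6J hearts had 3.65 to 7.95 of Inmt, above all NZB:NZB hearts and overlapping NZB:C57 hearts. They had at most 0.860 of Hamp2, and 34.5% of the words of Hamp2 occur in other genes.

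Among the cardiomyocyte markers, 12 of 13 rose in NZB:C57 hearts, with a median log2 fold change of 2.87 against -0.0040 over all genes tested. This count and those of the lists below stand beside 13.0% of all genes called higher and 2.89% called lower. Mb, myoglobin, the oxygen store of muscle (chr15:77015487-77050670), had 57764, 57352 and 56457 in NZB:C57 hearts against 5327, 4599 and 4544 in NZB:NZB hearts (log2 fold change 3.57, SE 0.10, limma adjusted p = 1.76e-14). Myh6 (chr14:54941921-54966927) had 91692, 89892 and 87003 in NZB:C57 hearts against 7707, 8913 and 8572 in NZB:NZB hearts (log2 fold change 3.42, SE 0.11, limma adjusted p = 1.12e-13). In both genes every NZB:C57 heart stood far above every other heart, as BL/6J hearts ran from 6181 to 7106 for Mb and 12215 to 15114 for Myh6. Actc1 (chr2:114047282-114053548) had 42669, 45488 and 42921 in NZB:C57 hearts against 5691, 4659 and 4659 in NZB:NZB hearts (log2 fold change 3.13, SE 0.10, limma adjusted p = 2.06e-13), with BL/6J hearts at 5593 to 7216. Myl2, the regulatory light chain of ventricular myosin, rose by 3.29 and Tnnt2, the tropomyosin-binding troponin, by 2.87 on the log2 scale. Ttn rose by 2.40 and Pln, the brake on the calcium pump, by 1.77. The exception was Csrp3, a Z-disc protein, which measured 1064, 1169.9 and 1115 in NZB:C57 hearts against 1314, 1130.2 and 1071 in NZB:NZB hearts, overlapping (log2 fold change -0.07, SE 0.08, limma adjusted p = 0.711). It was chosen after its values were seen. Liver changes of the 13 markers were all opposite in sign to those in heart and none was called: Mb -0.94 (adjusted p = 0.681), Myh6 -1.05 (adjusted p = 0.7), Actc1 -0.67 (adjusted p = 0.819), Myl2 -0.57 (adjusted p = 0.793), Tnnt2 -1.26 (adjusted p = 0.365), Ttn -0.81 (adjusted p = 0.633) and Pln -0.99 (adjusted p = 0.467). Reads of Mb, Myh6 and Pln may be divided with similar genes, since 27.7%, 29.2% and 59.5% of their sequence words occur in another gene's transcripts.

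**Figure D3:**
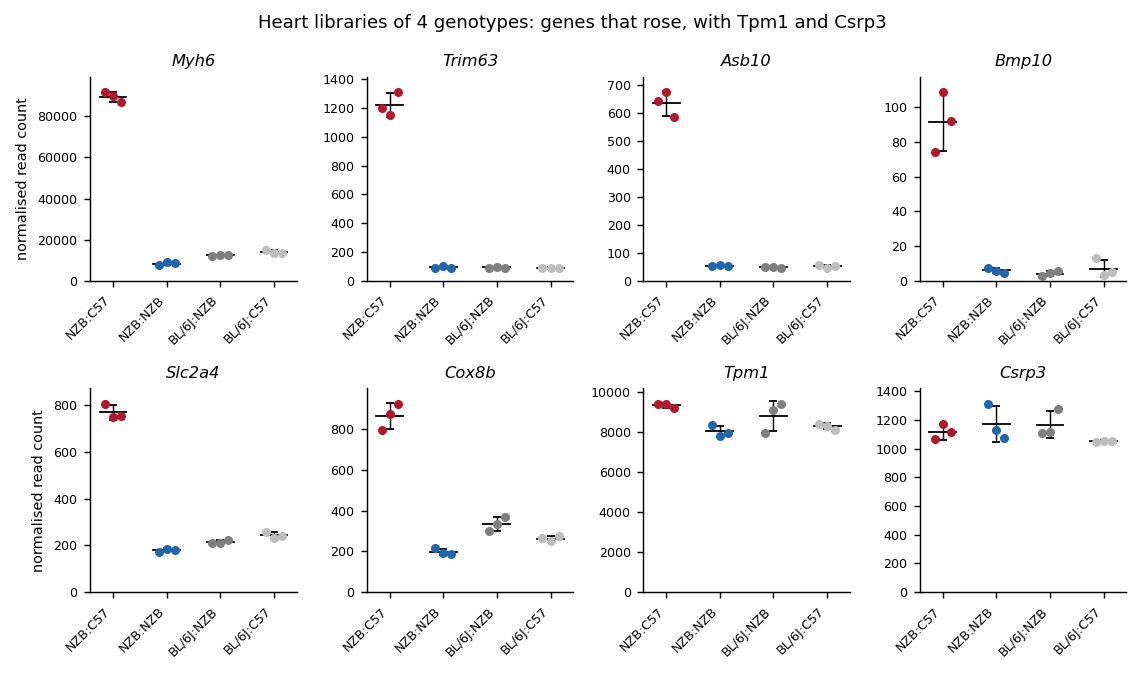
Each panel plots the normalised read count of a gene in all 12 hearts by genotype, from NZB:C57 and NZB:NZB to BL/6J:NZB and BL/6J:C57, with points for pools and a bar for the mean. In the panels of Myh6, Trim63, Asb10, Bmp10, Slc2a4 and Cox8b the 3 NZB:C57 pools lie above the other 9, whereas Tpm1 and Csrp3 are close to the level of the other genotypes.

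Of 15 thick filament genes tested, 13 rose and 2 fell, Myh7b and Smyd1, with a median of 1.65. Mybphl, a myosin-binding protein found mainly in atrial muscle, had 164, 195 and 283 in NZB:C57 hearts against 10.1, 20.7 and 12.5 in NZB:NZB hearts (log2 fold change 3.82, SE 0.25, limma adjusted p = 2.65e-09), and it was not tested in liver. Myl3, the essential light chain of ventricular myosin, had 17684, 17915 and 16723 in NZB:C57 hearts against 2358, 2182.1 and 2112 in NZB:NZB hearts (log2 fold change 2.98, SE 0.08, limma adjusted p = 3.57e-14). Myh7, the slow myosin heavy chain that dominates before birth and in stressed mouse hearts, had 4902, 5306 and 4442 in NZB:C57 hearts against 663, 756 and 701 in NZB:NZB hearts (log2 fold change 2.79, SE 0.11, limma adjusted p = 4.37e-12). Its BL/6J hearts ran from 72.1 to 184, so NZB:NZB hearts were also above them. At the lower end of the list, Mybpc3 rose by 1.38 and Myom2 by 0.33, the first of them chosen after its values were seen. In liver, Myl3 was -0.47 (adjusted p = 0.816), Myh7 -0.57 (adjusted p = 0.63) and Mybpc3 -0.41 (adjusted p = 0.8), all 3 opposite in sign and not called.

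Of 15 thin filament genes, 13 rose and none fell, with a median of 0.98. Lmod3, which starts and lengthens actin filaments (chr6:97238534-97252759), had 518, 515 and 466 in NZB:C57 hearts against 62.2, 55.9 and 55.1 in NZB:NZB hearts (log2 fold change 3.09, SE 0.07, limma adjusted p = 5.31e-15), above all BL/6J hearts at 48.9 to 53.8. Of the 3 cardiac troponins, Tnnt2 rose by 2.87 (SE 0.10), Tnni3 by 1.39 (SE 0.10) and Tnnc1 by 0.89 (SE 0.09). Tnni3 and Tnnc1 were chosen after their values were seen. Acta1, skeletal muscle actin, which the heart expresses in development and under load, had 4959, 5297 and 5808 in NZB:C57 hearts against 1710.1, 1918 and 1569 in NZB:NZB hearts (log2 fold change 1.63, SE 0.24, limma adjusted p = 6.63e-05). Lmod3 was not tested in liver, and Acta1 was opposite there and not called (-0.18, adjusted p = 0.912).

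At the Z-disc and costamere, where thin filaments are anchored, 18 of 23 genes rose and 1 fell. The gene that fell was Vcl, the adhesion protein vinculin, named after its values were seen, with 148, 136 and 145 in NZB:C57 hearts against 163, 179 and 169.5 in NZB:NZB hearts (log2 fold change -0.25, SE 0.08, limma adjusted p = 0.0419) and 25.3% of its words shared. Leaving out NZB:C57 heart 1, 2 or 3, or NZB:NZB heart 2 or 3, ended the call of Vcl. Its BL/6J hearts ran from 113 to 168 and overlapped both NZB genotypes. The median was 1.04, and under library totals 12 were called higher and 7 lower. Actn2, which crosslinks actin at the Z-disc, had 6015, 6016 and 6261 in NZB:C57 hearts against 877, 876 and 822 in NZB:NZB hearts (log2 fold change 2.83, SE 0.07, limma adjusted p = 1.14e-14). Myoz2, a calcineurin-binding Z-disc protein, rose by 2.72 (SE 0.07, adjusted p = 1.14e-14) and Ldb3, which holds the disc together, by 2.44 (SE 0.07, adjusted p = 3.1e-14). Actn2, Myoz2 and Ldb3 were opposite in sign and not called in liver, at -0.34, -0.29 and -0.31, as was Vcl, at 0.17.

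Calcium handling genes rose unevenly: 15 of 19 genes of excitation-contraction coupling were higher and 1 lower, with a median of 1.68. Under library totals 12 were called higher and 6 lower. Hrc, a calcium-binding protein of the sarcoplasmic reticulum (chr7:45335290-45338974), had 2363, 2379 and 2267 in NZB:C57 hearts against 403, 396 and 398 in NZB:NZB hearts (log2 fold change 2.55, SE 0.07, limma adjusted p = 2.45e-14). Cacna2d1, a subunit that carries calcium channels to the membrane, had 611, 607 and 549.7 in NZB:C57 hearts against 95.5, 83.5 and 111 in NZB:NZB hearts (log2 fold change 2.60, SE 0.09, limma adjusted p = 2.29e-13). Jph2, which ties the reticulum to the cell membrane, rose by 2.30 (SE 0.08, adjusted p = 7.2e-13). Ryr2, the release channel, chosen after its values were seen, rose by 2.38 (SE 0.12, adjusted p = 7.79e-11). The pump that returns calcium to the store stood apart from its partners. Atp2a2 had 13311, 12834 and 12796 in NZB:C57 hearts against 10069, 9779.5 and 10618 in NZB:NZB hearts, without overlap (log2 fold change 0.35, SE 0.09, limma adjusted p = 0.013), while BL/6J hearts ran from 10718 to 14333. Its call ended with no filter on low values and without NZB:C57 heart 1, and under library totals its value was -0.35. In liver Hrc (-0.08), Ryr2 (-0.13) and Atp2a2 (-0.43) were opposite and not called, and Cacna2d1 and Jph2 were not tested.

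Of 25 sodium, potassium and gap junction channel genes, 16 rose and none fell, with a median of 0.76. Under library totals 10 were called higher and 7 lower. Kcnj3 (chr2:55435970-55598145), a subunit of the potassium channel opened by vagal input, had 325, 296 and 321 in NZB:C57 hearts against 15.96, 23.8 and 18.9 in NZB:NZB hearts (log2 fold change 3.95, SE 0.11, limma adjusted p = 4.42e-14). BL/6J hearts ran from 40.2 to 51.0, between both NZB genotypes. Kcnj5, its partner subunit, had 369, 362 and 360.1 in NZB:C57 hearts against 44.9, 53.4 and 53.7 in NZB:NZB hearts (log2 fold change 2.82, SE 0.08, limma adjusted p = 4.42e-14). Kcnk3, a background potassium channel, rose by 1.42 (SE 0.07, adjusted p = 9.71e-11). Gja1, the main gap junction protein, chosen after its values were seen, rose by 0.69 (SE 0.08, adjusted p = 2.81e-06). Under library totals Gja1 stood at -0.014. Kcnj3, Kcnj5 and Kcnk3 were not tested in liver, where Kcnj3 was 0, 0 and 0 in NZB:C57 livers and 0.274, 0.197 and 0.111 in NZB:NZB livers, 6 reads in all. Gja1 was opposite there and not called (-0.76, adjusted p = 0.055).

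Of 17 genes of adrenergic and muscarinic signalling, 9 rose and none fell, and under library totals 4 were called higher and 8 lower. Chrm2, the vagal receptor that opens the Kcnj3 and Kcnj5 channel, had 370.1, 325 and 343 in NZB:C57 hearts against 85.2, 88.1 and 96.7 in NZB:NZB hearts (log2 fold change 1.93, SE 0.08, limma adjusted p = 2.16e-12). Adrb1, the main receptor for noradrenaline in the heart, had 30.3, 34.8 and 32.5 in NZB:C57 hearts against 10.6, 10.1 and 12.7 in NZB:NZB hearts (log2 fold change 1.47, SE 0.12, limma adjusted p = 4.14e-08). In both receptors the groups were apart and NZB:C57 hearts were above all BL/6J hearts. Akap6, an anchor for protein kinase A, rose by 0.98 (SE 0.08, adjusted p = 6.51e-08). None of the 3 was tested in liver.

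Natriuretic peptides and atrial genes were high in NZB:C57 hearts. Nppa, the atrial natriuretic peptide (chr4:148000722-148002079), had 3560.1, 3811 and 6694 in NZB:C57 hearts against 369.7, 439 and 338 in NZB:NZB hearts (log2 fold change 3.56, SE 0.25, limma adjusted p = 6.51e-09). Nppb, the peptide of the ventricle, chosen after its values were seen, had 262, 385 and 484 in NZB:C57 hearts against 138, 99.4 and 116 in NZB:NZB hearts (log2 fold change 1.64, SE 0.24, limma adjusted p = 5.96e-05). Corin, the protease that activates atrial natriuretic peptide, had 602, 558 and 603 in NZB:C57 hearts against 104, 103 and 106 in NZB:NZB hearts (log2 fold change 2.48, SE 0.08, limma adjusted p = 1.53e-13), and Npr3, the receptor that clears them, rose by 1.18 (SE 0.15, adjusted p = 8.16e-06), also chosen after its values were seen. In these 4 genes the groups did not overlap. Over the list of natriuretic and hypertrophy genes, 9 of 14 rose and none fell. Of 8 atrial markers, 6 rose, and their sum was 5437 to 9440.1 in NZB:C57 hearts against 676 to 1003 in NZB:NZB hearts. Myl7, the atrial light chain, had 742, 786 and 1187 in NZB:C57 hearts against 65.4, 141 and 89.9 in NZB:NZB hearts and Sln, an atrial calcium pump regulator, had 205, 251 and 327 in NZB:C57 hearts against 29.6, 54.8 and 36.0 in NZB:NZB hearts. NZB:C57 heart 3 was highest for Nppa, Myl7, Sln, Myl4, Mybphl and Edn3, the last encoding an endothelin, and it is also the least sequenced NZB:C57 heart. Nr2f2, which sets atrial identity, did not differ in this way, with 12.1, 10.2 and 8.61 in NZB:C57 hearts against 12.2, 10.3 and 13.0 in NZB:NZB hearts, overlapping (log2 fold change -0.19, SE 0.15, limma adjusted p = 0.504). The tissue was labelled left ventricle, and the part of atrial tissue in these values was not tested. Myl7, Sln, Myl4 and Nr2f2 were chosen after their values were seen. In liver Npr3 (-1.12 (adjusted p = 0.00873)) and Myl4 (-1.27 (adjusted p = 0.023)) were called lower, opposite to heart, Nppa (-0.68 (adjusted p = 0.569)), Myl7 (-0.85 (adjusted p = 0.174)) and Nr2f2 (0.16 (adjusted p = 0.73)) were opposite and not called, and Nppb, Corin, Sln, Mybphl and Edn3 were not tested.

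Other secreted and regulatory genes among the highest changes were Bmp10, Zfpm2 and Mlf1. Bmp10, a growth factor made by heart muscle (chr6:87428994-87437677), had 74.4, 109 and 91.8 in NZB:C57 hearts against 7.55, 5.92 and 4.39 in NZB:NZB hearts (log2 fold change 3.74, SE 0.32, limma adjusted p = 8.26e-08). Edn3 had 24.7, 27.2 and 45.7 in NZB:C57 hearts against 1.67, 1.04 and 2.197 in NZB:NZB hearts (log2 fold change 3.64, SE 0.24, limma adjusted p = 2.67e-09). Zfpm2, a cofactor of GATA factors, had 92.8, 80.9 and 84.8 in NZB:C57 hearts against 7.15, 9.22 and 7.44 in NZB:NZB hearts (log2 fold change 3.29, SE 0.12, limma adjusted p = 1.29e-12). Mlf1, whose product shuttles to the nucleus, had 1233, 1169.8 and 1089.7 in NZB:C57 hearts against 138, 102 and 120.0 in NZB:NZB hearts (log2 fold change 3.28, SE 0.11, limma adjusted p = 1.77e-13). All 4 separated every NZB:C57 heart from the other 9 hearts, and none was tested in liver. Ndrg4, a cytoplasmic protein of cardiomyocytes, had 796, 825 and 848 in NZB:C57 hearts against 116, 108 and 102 in NZB:NZB hearts (log2 fold change 2.91, SE 0.07, limma adjusted p = 5.28e-15) and was not tested in liver either.

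The cardiac transcription factors, which switch on many of the genes above, were mixed. Of 21 tested, 7 rose and 3 fell, with a median of 0.19, and under library totals 4 were called higher and 12 lower. Tbx5, which patterns the chambers, had 80.1, 75.4 and 88.7 in NZB:C57 hearts against 15.2, 20.2 and 19.1 in NZB:NZB hearts (log2 fold change 2.11, SE 0.13, limma adjusted p = 1.15e-09). Tbx20 rose by 1.73 (SE 0.07, adjusted p = 5.35e-12) and Irx4, a ventricular factor, by 1.79 (SE 0.11, adjusted p = 8.28e-10). Myocd, the partner of serum response factor, rose by 1.90 (SE 0.13, adjusted p = 4.98e-09), and Mef2c by 0.80 (SE 0.09, adjusted p = 3.35e-06). Gata4 had 107, 114 and 97.1 in NZB:C57 hearts against 89.7, 93.6 and 85.7 in NZB:NZB hearts, apart but just short of the threshold (log2 fold change 0.24, SE 0.08, limma adjusted p = 0.0529). Hopx, which encodes a homeodomain protein without DNA binding, had 151, 155 and 129 in NZB:C57 hearts against 237, 209 and 218 in NZB:NZB hearts (log2 fold change -0.61, SE 0.08, limma adjusted p = 2.62e-05), with all 3 NZB:C57 hearts below the other 9. Nkx2-5, a factor needed for heart formation, had 32.1, 36.0 and 33.8 in NZB:C57 hearts against 37.1, 47.7 and 41.9 in NZB:NZB hearts (log2 fold change -0.30, SE 0.09, limma adjusted p = 0.0377), and Tbx3 fell by 0.47. The call of Nkx2-5 ended with DESeq2, with the 6 libraries fitted alone and without NZB:C57 heart 1 or 3 or NZB:NZB heart 2 or 3, and that of Tbx3 without heart 2 of either genotype. Without NZB:NZB heart 2 only 1 factor was called lower. Tbx3 was 9.38 to 13.8 in BL/6J hearts, spanning the NZB:C57 hearts at 10.8 to 13.6. Nkx2-5 was 40.9 to 51.6 in BL/6J hearts, above all NZB:C57 hearts. Myocd, Mef2c, Gata4, Hopx, Nkx2-5 and Tbx3 were chosen after their values were seen. In liver Mef2c (-0.86 (adjusted p = 0.00681)) and Hopx (0.81 (adjusted p = 0.00122)) were called in the opposite direction, Tbx20 (-0.86), Gata4 (-0.25) and Tbx3 (0.64) were opposite and not called, and the rest were not tested.

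Of 17 muscle ubiquitin ligase and atrophy genes, 8 rose and 1, Kbtbd12, named after its values were seen, fell, with a median of 0.30, so the highest members stood far from the list. Trim63, also known as MuRF1 (chr4:134315120-134329629), had 1199, 1154 and 1309.8 in NZB:C57 hearts against 92.3, 99.7 and 88.2 in NZB:NZB hearts (log2 fold change 3.69, SE 0.07, limma adjusted p = 4.07e-16). Trim54, its relative on microtubules and the sarcomere, had 741, 777 and 861 in NZB:C57 hearts against 63.3, 60.9 and 53.6 in NZB:NZB hearts (log2 fold change 3.72, SE 0.08, limma adjusted p = 2.98e-15). Asb10, a substrate receptor of ubiquitin ligases, had 644, 674 and 585 in NZB:C57 hearts against 53.5, 54.8 and 52.9 in NZB:NZB hearts (log2 fold change 3.53, SE 0.08, limma adjusted p = 2.76e-15). NZB:NZB hearts lay within or close to the BL/6J range of 88.9 to 95.1 for Trim63 and 47.4 to 56.2 for Asb10, and below the BL/6J range of 70.7 to 82.3 for Trim54. Cavin4, a muscle caveolar coat protein, rose by 2.50 (SE 0.07, adjusted p = 1.59e-14). Kbtbd12 had 21.0, 15.5 and 21.4 in NZB:C57 hearts against 29.5, 25.2 and 26.4 in NZB:NZB hearts (log2 fold change -0.48, SE 0.12, limma adjusted p = 0.012), and its call ended without NZB:C57 heart 2 or NZB:NZB heart 1. BL/6J hearts had 17.8 to 23.3 of Kbtbd12, overlapping NZB:C57 hearts and below all NZB:NZB hearts. Under library totals 5 of the list were called higher and 11 lower. Trim63, Trim54, Asb10 and Cavin4 were not tested in liver, and Kbtbd12 was opposite there and not called (0.36).

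Of the 11 genes of oxygen and phosphate energy transfer, 7 rose and none fell, with a median of 0.86. Ckm, the cytosolic creatine kinase of muscle, had 7941, 8228 and 7867 in NZB:C57 hearts against 1138, 1109 and 991 in NZB:NZB hearts (log2 fold change 2.89, SE 0.08, limma adjusted p = 3e-14). Ckmt2, its mitochondrial partner, had 6619.7, 6495 and 7192 in NZB:C57 hearts against 1080.2, 893 and 920.4 in NZB:NZB hearts (log2 fold change 2.81, SE 0.08, limma adjusted p = 4.42e-14). Slc25a4, the ADP/ATP carrier of heart mitochondria, had 6421, 6437 and 6539 in NZB:C57 hearts against 3252, 2886 and 2942 in NZB:NZB hearts (log2 fold change 1.10, SE 0.08, limma adjusted p = 1.5e-08). Its more widely expressed relative Slc25a5, chosen after its values were seen, had 214, 206 and 245 in NZB:C57 hearts against 262, 222 and 224 in NZB:NZB hearts, overlapping (log2 fold change -0.09, SE 0.08, limma adjusted p = 0.573), with 49.4% of its words shared. Under library totals 5 of the 11 were called higher and 4 lower. Slc25a4 was called lower in liver (-1.22, adjusted p = 0.00425), Ckm (-0.42) and Ckmt2 (-0.32) were opposite and not called, and Slc25a5 (0.03) was opposite and not called.

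Fuel genes rose in part. For fatty acid oxidation, 15 of 35 genes rose and none fell, with a median of 0.18. The count was 8 without NZB:C57 heart 3 and 9 without NZB:NZB heart 3, and under library totals 4 were called higher and 26 lower. Cd36, which takes up fatty acids, had 2485, 2449 and 2545 in NZB:C57 hearts against 1148, 944 and 1069 in NZB:NZB hearts (log2 fold change 1.25, SE 0.08, limma adjusted p = 9.5e-10). Fabp3, the fatty acid carrier of heart cytosol, rose by 1.37 (SE 0.08, adjusted p = 9.16e-10) and Cpt1b, the gate into mitochondria, by 1.11 (SE 0.08, adjusted p = 6.76e-09). Of 29 glycolysis and glucose uptake genes, 11 rose and none fell, with a median of 0.16, and under library totals 4 were called higher and 20 lower. Slc2a4, the insulin-responsive glucose transporter, had 807, 750.1 and 753 in NZB:C57 hearts against 174, 186 and 182 in NZB:NZB hearts (log2 fold change 2.09, SE 0.07, limma adjusted p = 1.12e-13), and Pgam2, muscle phosphoglycerate mutase, rose by 1.01 (SE 0.07, adjusted p = 9.37e-09). Oxct1, which starts ketone use, rose by 0.69 (SE 0.07, adjusted p = 1.44e-06) and Ldhb, the lactate dehydrogenase of heart, by 1.07 (SE 0.08, adjusted p = 1.96e-08). Under library totals Oxct1 stood at -0.012. Liver differences of Cd36 (-1.53, adjusted p = 9.59e-07), Ldhb (-0.95, adjusted p = 0.0418) and Oxct1 (-0.74, adjusted p = 0.0256) were called in the opposite direction, those of Fabp3, Cpt1b and Pgam2 were opposite and not called, and Slc2a4 was not tested. Fabp3 and Cpt1b share 50.1% and 79.7% of their words with other genes.

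In the respiratory chain the calls were in a few subunits with tissue-specific forms. Of 15 nuclear subunits of complex IV, 4 rose and none fell with limma, and the 4 are forms that most other tissues make little of. edgeR also called 1 lower, as did limma without NZB:C57 heart 2 or NZB:NZB heart 3. Under library totals 3 of the 15 were called higher and 12 lower. Cox8b had 795, 872 and 924 in NZB:C57 hearts against 214, 190.0 and 185 in NZB:NZB hearts (log2 fold change 2.13, SE 0.09, limma adjusted p = 2.95e-12). Cox6a2 had 1499, 1599 and 1542 in NZB:C57 hearts against 547, 582 and 531 in NZB:NZB hearts (log2 fold change 1.48, SE 0.09, limma adjusted p = 1.17e-09). Cox4i2, the form induced by low oxygen, rose by 1.15 (SE 0.17, adjusted p = 5.43e-05), and Cox7a1, the muscle form of its subunit, by 0.51 (SE 0.08, adjusted p = 0.00015), although under library totals Cox7a1 stood at -0.20. Their counterparts in most tissues did not pass the threshold: Cox4i1 had 919, 939 and 956 in NZB:C57 hearts against 1021, 881 and 875 in NZB:NZB hearts and Cox6a1 had 56.7, 63.9 and 54.3 in NZB:C57 hearts against 72.4, 71.0 and 63.0 in NZB:NZB hearts, with log2 fold changes of 0.02 (SE 0.09) and -0.24 (SE 0.09). Cox7a1, Cox4i1 and Cox6a1 were chosen after their values were seen. In liver Cox6a2 (-0.14), Cox7a1 (-0.25) and Cox6a1 (0.21) were opposite and not called, Cox4i1 (0.02) had the same sign and was not called, and Cox8b and Cox4i2 were not tested.

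The other respiratory complexes and the genes that copy and express mtDNA gave no calls. None of the 37 nuclear subunits of complex I, 14 of complexes II and III or 15 of ATP synthase was called by limma, edgeR or DESeq2, and none reached an unadjusted p under 0.05 with limma. Their median log2 fold changes were 0.01, -0.02 and 0.03, against -0.0040 over all genes. Atp5b, the catalytic subunit of ATP synthase, had 4399, 4306 and 4217 in NZB:C57 hearts against 4335, 3858 and 3962 in NZB:NZB hearts, overlapping (log2 fold change 0.09, SE 0.08, limma adjusted p = 0.588). None of the 25 genes of mtDNA maintenance and expression was called by the 3 tools, with 0 at an unadjusted p under 0.05, nor were any of 75 mitochondrial ribosomal proteins, with 3 at that p, or 27 assembly factors, with 1. Among 23 genes of mitochondrial protein quality control and import 1 had an unadjusted p under 0.05 and none was called by any of the 3 tools. Of 22 citric acid cycle genes, 2 rose (9.09%, against 13.0% of all genes). These near-zero medians rest on the authors' scaling, since under library totals all 37 complex I genes and all 25 mtDNA maintenance genes were called lower, as were 10240 genes of the whole table. Relative to the median of all genes under that scaling, the complex I median was -0.05. Atp5b in liver was opposite and not called (-0.15).

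Markers of other heart cells rose too, with smaller medians than those of cardiomyocytes. For fibroblasts 9 of 12 markers rose and 1 fell (75% and 8.33%, against 13.0% and 2.89% of all genes), with a median of 0.52. For endothelial cells 10 of 13 rose, with a median of 0.66, and for smooth muscle and pericytes 7 of 10, with a median of 0.59. Of 11 macrophage markers 4 rose (36.4%, against 13.0% of all genes), and all 11 had positive log2 fold changes, with a median of 0.28. Their directions depend on the scaling: under library totals fibroblast markers counted 2 higher and 6 lower, endothelial markers 2 and 5, smooth muscle markers 2 and 4, and macrophage markers 1 and 7. Summed values were 2631 to 2854 in NZB:C57 hearts and 1663 to 1822 in NZB:NZB hearts for endothelial markers, and 5111 to 5461 and 3296 to 3803 for fibroblast markers.

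Within a cell type the markers spread widely. Cspg4, a pericyte proteoglycan, had 144, 151 and 162 in NZB:C57 hearts against 18.8, 23.5 and 21.3 in NZB:NZB hearts (log2 fold change 2.79, SE 0.11, limma adjusted p = 2.16e-12), whereas Rgs5, also a pericyte gene, rose by 0.66 (SE 0.08, adjusted p = 5.19e-06). Mfap5, a microfibril protein of fibroblasts, had 185, 214 and 273 in NZB:C57 hearts against 36.0, 35.2 and 28.1 in NZB:NZB hearts (log2 fold change 2.71, SE 0.13, limma adjusted p = 2.16e-11), while Dcn, the abundant collagen-binding decorin, rose by 0.81 (SE 0.06, adjusted p = 3.3e-08). Flt1, a receptor for vascular growth factor, had 214, 205 and 229 in NZB:C57 hearts against 80.1, 107 and 91.9 in NZB:NZB hearts (log2 fold change 1.21, SE 0.10, limma adjusted p = 6.74e-08), and Kdr, the second such receptor, rose by 0.90 (SE 0.07, adjusted p = 2.42e-08). Aplnr, the apelin receptor of growing vessels, had 275, 266 and 176 in NZB:C57 hearts against 51.1, 54.8 and 52.7 in NZB:NZB hearts (log2 fold change 2.13, SE 0.12, limma adjusted p = 5.03e-10), and Adm, the vasodilator adrenomedullin, had 16.6, 17.7 and 15.7 in NZB:C57 hearts against 4.13, 4.002 and 2.37 in NZB:NZB hearts (limma adjusted p = 4.38e-08). Of 18 angiogenesis and hypoxia genes 11 rose and none fell. Under library totals 6 of them were called higher and 10 lower, Rgs5 stood at -0.042, and Dcn was no longer called. Liver went the other way with a call for Kdr (-1.38), Flt1 (-1.50), Dcn (-1.20) and Rgs5 (-1.04), each with an adjusted p of at most 0.00407. Cspg4, Mfap5, Aplnr and Adm were not tested there.

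Matrix genes split. Of 34 extracellular matrix genes 20 rose and 3 fell, Col15a1, Fn1 and Mmp14, all named after their values were seen, and under library totals 4 were called higher and 20 lower. Tgfb2, a growth factor that stimulates matrix production, had 41.7, 44.2 and 53.9 in NZB:C57 hearts against 6.43, 9.22 and 7.77 in NZB:NZB hearts (log2 fold change 2.44, SE 0.14, limma adjusted p = 5.44e-10). Col15a1, a collagen of muscle and vessel basement membranes, had 155, 159.7 and 127 in NZB:C57 hearts against 280.4, 315 and 276 in NZB:NZB hearts (log2 fold change -0.98, SE 0.11, limma adjusted p = 3.48e-06), with BL/6J hearts at 67.8 to 128. Fn1, fibronectin, had 70.3, 78.5 and 78.6 in NZB:C57 hearts against 91.8, 159 and 113 in NZB:NZB hearts (log2 fold change -0.64, SE 0.14, limma adjusted p = 0.00337). The groups did not overlap for Col15a1 or Fn1. BL/6J hearts lay below both NZB genotypes for Fn1, at 46.2 to 64.3, and for Mmp14, at 15.4 to 18.7. Mmp14, a membrane protease that cuts collagen, fell by 0.34, and its call ended with DESeq2, with the 6 libraries fitted alone and without NZB:C57 heart 1 or 3 or NZB:NZB heart 1 or 2. In liver Col15a1 was called in the opposite direction (0.77 (adjusted p = 0.0397)), Fn1 was opposite and not called (0.42), Mmp14 had the same sign and was not called (-0.02), and Tgfb2 was not tested.

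**Figure D4:**
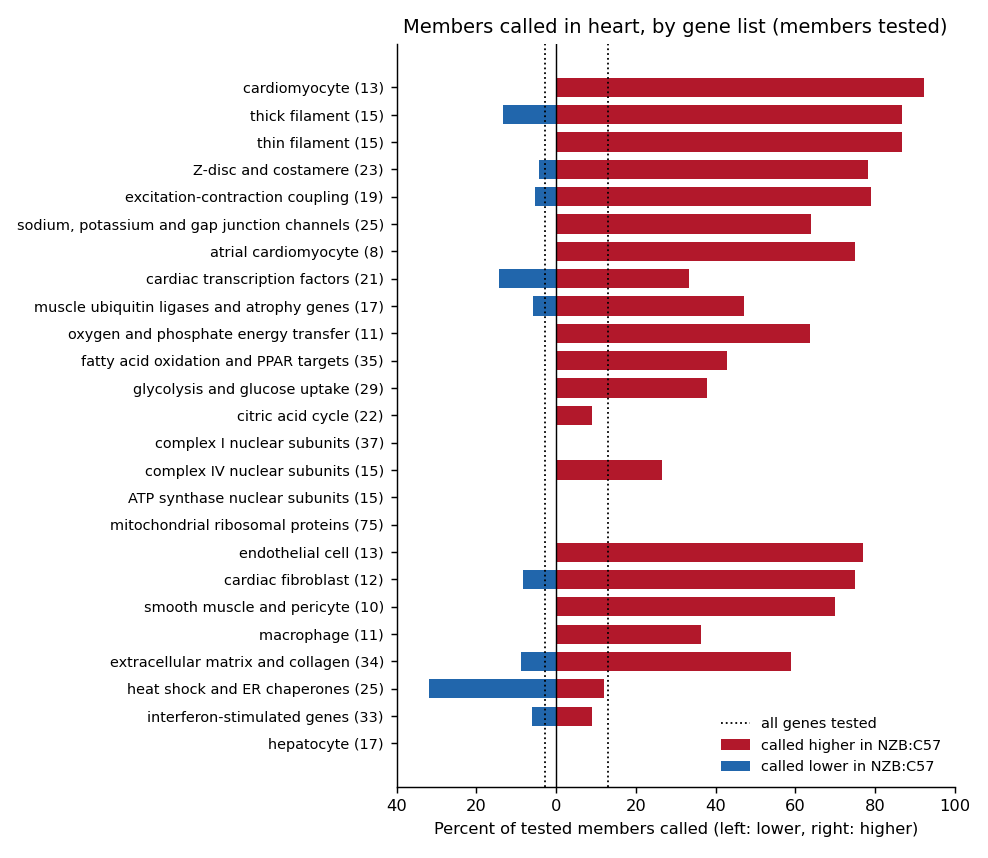
For 25 gene lists the bars give the percentage of tested members called higher and called lower in NZB:C57 hearts, with dotted lines at the 13.0% and 2.89% of all genes tested. Contractile and calcium lists and the markers of cardiomyocytes, fibroblasts, endothelial cells and smooth muscle lie above the line for higher genes. Complex IV lies above it too, at 26.7%, whereas the lists of complex I, ATP synthase, mitochondrial ribosomal proteins and hepatocyte markers lie at 0.

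Markers of liver and lymphocytes gave no calls. Hepatocyte markers had 0 of 17 called by any of the 3 tools and 0 at an unadjusted p under 0.05, and lymphocyte markers likewise had 0 of 7 with each. A list of 7 is too short to tell 0 calls from the 13.0% and 2.89% of all genes. All 6 red blood cell markers tested had positive log2 fold changes, with a median of 1.09, and 2 of them were called higher by limma, 4 by edgeR and 1 by DESeq2. Leaving out a library gave 1 to 4 called. Slc4a1, the anion exchanger of red cells, had 3.48, 13.5 and 3.31 in NZB:C57 hearts against 0.477, 1.39 and 2.197 in NZB:NZB hearts and was not tested in liver, and NZB:C57 heart 2 was far above the others. Of 4 skeletal muscle markers tested 3 rose (75%, against 13.0% of all genes), Acta1 among them. In a joint list of conduction system and neuron markers 4 of 6 rose (66.7%, against 13.0% of all genes). Cntn2, Cacna1g, Dbh and Uchl1 were called higher, and Hcn4 and Gja5 were not called.

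Among stress genes, heat shock and endoplasmic reticulum chaperones were called lower in a larger share than all genes tested, 32% against 2.89%. Of 16 genes of the integrated stress response, which mouse hearts switch on when mitochondria fail, none rose and 1 fell (6.25%). A list of 16 is too short to tell these counts from the 13.0% of all genes called higher and 2.89% called lower. Whether mitochondria failed in these hearts was not tested. edgeR called 1 higher and 1 lower and DESeq2 1 lower, and 3 had an unadjusted p under 0.05. Atf4, its central transcription factor, had 46.9, 53.8 and 52.8 in NZB:C57 hearts against 74.4, 67.2 and 60.7 in NZB:NZB hearts, without overlap (log2 fold change -0.39, SE 0.10, limma adjusted p = 0.00768). Liver moved the opposite way with a call (0.50 (adjusted p = 0.00986)), and the heart call ended without NZB:C57 heart 1. Of 25 heat shock and endoplasmic reticulum chaperones, 8 fell and 3 rose, with a median of -0.24. Leaving out NZB:C57 heart 1 or 3 left 4 lower, and leaving out NZB:NZB heart 1 left 5. Hspb1, a small heat shock protein, had 113, 129.6 and 152 in NZB:C57 hearts against 271, 251 and 206 in NZB:NZB hearts (log2 fold change -0.88, SE 0.15, limma adjusted p = 0.000265), and liver was called higher (1.41 (adjusted p = 0.011)). Pdia3, which folds glycoproteins, had 205, 222 and 212 in NZB:C57 hearts against 319, 296 and 271 in NZB:NZB hearts (log2 fold change -0.47, SE 0.09, limma adjusted p = 0.00116), with 0.32 (adjusted p = 0.256) in liver, opposite and not called. Its BL/6J hearts ran from 155 to 222 and overlapped NZB:C57 hearts, while those of Hspb1, at 188 to 271, lay above NZB:C57 hearts. Hspb7, the small heat shock protein of heart muscle, rose instead, with 3455, 3382 and 3626 in NZB:C57 hearts against 1246, 1289 and 1088 in NZB:NZB hearts (log2 fold change 1.53, SE 0.08, limma adjusted p = 5.66e-11), and was opposite and not called in liver (-0.50).

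RNA-binding genes also went both ways. Rbm24, a splicing factor of heart and muscle, had 536, 573 and 691 in NZB:C57 hearts against 99.5, 93.1 and 102 in NZB:NZB hearts (log2 fold change 2.59, SE 0.09, limma adjusted p = 2.01e-13) and was not tested in liver. Hnrnpu, an abundant nuclear RNA-binding protein, had 169.9, 169 and 164 in NZB:C57 hearts against 203, 195 and 194 in NZB:NZB hearts (log2 fold change -0.24, SE 0.06, limma adjusted p = 0.0104), opposite and not called in liver (0.09). Of 22 splicing factors 2 rose (9.09%) and 4 fell (18.2%), against 13.0% and 2.89% of all genes. Their median was -0.20, and edgeR called 3 higher and 8 lower and DESeq2 3 and 7. Without heart 1 of either genotype 2 were lower, and without NZB:NZB heart 2 there were 8. Of 74 cytosolic ribosomal proteins 2 rose (2.7%) and none fell, and of 27 proteasome genes none was called by any of the 3 tools, with 1 at an unadjusted p under 0.05. Interferon-stimulated genes gave 3 higher and 2 lower of 33 (9.09% and 6.06%, against 13.0% and 2.89% of all genes). With a library left out 0 to 2 of them were called lower. Of 34 cell cycle genes 4 rose in heart (11.8%, against 13.0% of all genes), while 17 were called lower in liver (50%, against 4.44% of all genes). Cenpf, a kinetochore protein, had 24.8, 19.97 and 17.2 in NZB:C57 hearts against 9.37, 9.92 and 9.13 in NZB:NZB hearts (log2 fold change 1.03, SE 0.15, limma adjusted p = 6.94e-05) and -1.38 (adjusted p = 0.00745) in liver.

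Single genes of other lists also differed between the hearts. Gsn, an actin-severing protein rich in fibroblasts, had 2134, 2163 and 1977 in NZB:C57 hearts against 1084, 1172 and 1033 in NZB:NZB hearts (log2 fold change 0.93, SE 0.09, limma adjusted p = 4.56e-07). Cx3cr1, a chemokine receptor of tissue macrophages, had 23.3, 30.2 and 15.9 in NZB:C57 hearts against 6.20, 8.005 and 6.59 in NZB:NZB hearts, with the pools of NZB:C57 spread widely but above the other 9 hearts (log2 fold change 1.57, SE 0.21, limma adjusted p = 1.65e-05). C7, a late complement component, had 21.3, 19.5 and 19.6 in NZB:C57 hearts against 4.61, 7.31 and 5.41 in NZB:NZB hearts (log2 fold change 1.66, SE 0.16, limma adjusted p = 3.78e-07). Klf4, a transcription factor of vessel walls, rose by 1.44 (SE 0.11, adjusted p = 2.85e-08), and Igf1r, the receptor of insulin-like growth factor, by 1.54 (SE 0.21, adjusted p = 2.9e-05). Gpx3, a secreted glutathione peroxidase, had 224, 249 and 268 in NZB:C57 hearts against 122.7, 157 and 129 in NZB:NZB hearts (log2 fold change 0.86, SE 0.12, limma adjusted p = 2.68e-05), a call that library totals ended. In the interferon list Bst2, which tethers budding viruses, had 17.5, 17.9 and 14.8 in NZB:C57 hearts against 21.8, 21.6 and 20.3 in NZB:NZB hearts (log2 fold change -0.33, SE 0.10, limma adjusted p = 0.0319). Its call ended with DESeq2, with the 6 libraries fitted alone and without NZB:C57 heart 1 or 3 or NZB:NZB heart 1 or 2. In liver Gsn (-1.18 (adjusted p = 0.0013)) was called lower, opposite to heart, Cx3cr1 (-0.94), Klf4 (-0.47), Gpx3 (-0.63) and Bst2 (0.20) were opposite and not called, and C7 and Igf1r were not tested.

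Genes that fell were fewer and changed less than those that rose. Ccdc69, which encodes a protein of the dividing spindle (chr11:55049731-55078131), had 3.23, 2.97 and 2.21 in NZB:C57 hearts against 15.3, 12.4 and 11.5 in NZB:NZB hearts (log2 fold change -1.89, SE 0.13, limma adjusted p = 7.94e-09), with BL/6J hearts at 15.2 to 19.2. Scara5, a ferritin receptor of fibroblasts (chr14:65666403-65764826), had 16.05, 14.9 and 11.9 in NZB:C57 hearts against 47.0, 47.0 and 50.03 in NZB:NZB hearts (log2 fold change -1.69, SE 0.14, limma adjusted p = 6.19e-08), with BL/6J hearts at 18.6 to 27.4. Gstp1, a glutathione transferase, had 17.4, 18.0 and 17.2 in NZB:C57 hearts against 41.5, 37.8 and 35.8 in NZB:NZB hearts (log2 fold change -1.08, SE 0.09, limma adjusted p = 1.2e-07), and 38.5% of its words occur in other genes. Adam11, a membrane protein without protease activity, had 7.13, 7.18 and 7.95 in NZB:C57 hearts against 14.1, 16.7 and 19.1 in NZB:NZB hearts (log2 fold change -1.06, SE 0.12, limma adjusted p = 3.15e-06). In each of these genes all 3 NZB:C57 hearts lay below the other 9 hearts. Liver was called in the opposite direction for Scara5 (2.34 (adjusted p = 0.00575)), Gstp1 (1.88 (adjusted p = 1.09e-06)) and Adam11 (1.65 (adjusted p = 0.00274)), and Ccdc69 was not tested there.

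Several of the other genes among the 15 lowest had values of a few units, for which log2(value + 1) understates the change. Inka2, an inhibitor of the kinase PAK4, had 7.56, 8.25 and 7.29 in NZB:C57 hearts against 15.6, 21.2 and 19.8 in NZB:NZB hearts, with BL/6J hearts higher still at 31.3 to 45.03 (log2 fold change -1.18, SE 0.11, limma adjusted p = 2.48e-07). Aoc3, vascular amine oxidase, had 13.0, 14.0 and 11.3 in NZB:C57 hearts against 25.4, 37.2 and 26.2 in NZB:NZB hearts (log2 fold change -1.14, SE 0.13, limma adjusted p = 4.98e-06), and BL/6J hearts at 14.0 to 18.0 lay near NZB:C57 hearts. Vwa3a fell by 0.99 on the log2 scale, and its BL/6J hearts ran from 10.7 to 16.8, above both NZB genotypes. Sertad4 had 3.48, 2.89 and 2.21 in NZB:C57 hearts against 11.0, 12.5 and 11.0 in NZB:NZB hearts, and Msx1, a homeobox factor of developing valves, 1.27, 2.23 and 1.55 in NZB:C57 hearts against 5.56, 5.57 and 4.39 in NZB:NZB hearts. Moxd1 had 0.255, 0.33 and 0 in NZB:C57 hearts against 1.67, 3.83 and 2.03 in NZB:NZB hearts, and in liver it was opposite and not called (0.13). Gal3st2c, Pdzd3, BB218582, Slitrk6 and Fam78b fell by 1.11 to 1.60. Other than Moxd1, none of these was tested in liver.

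**Figure D5:**
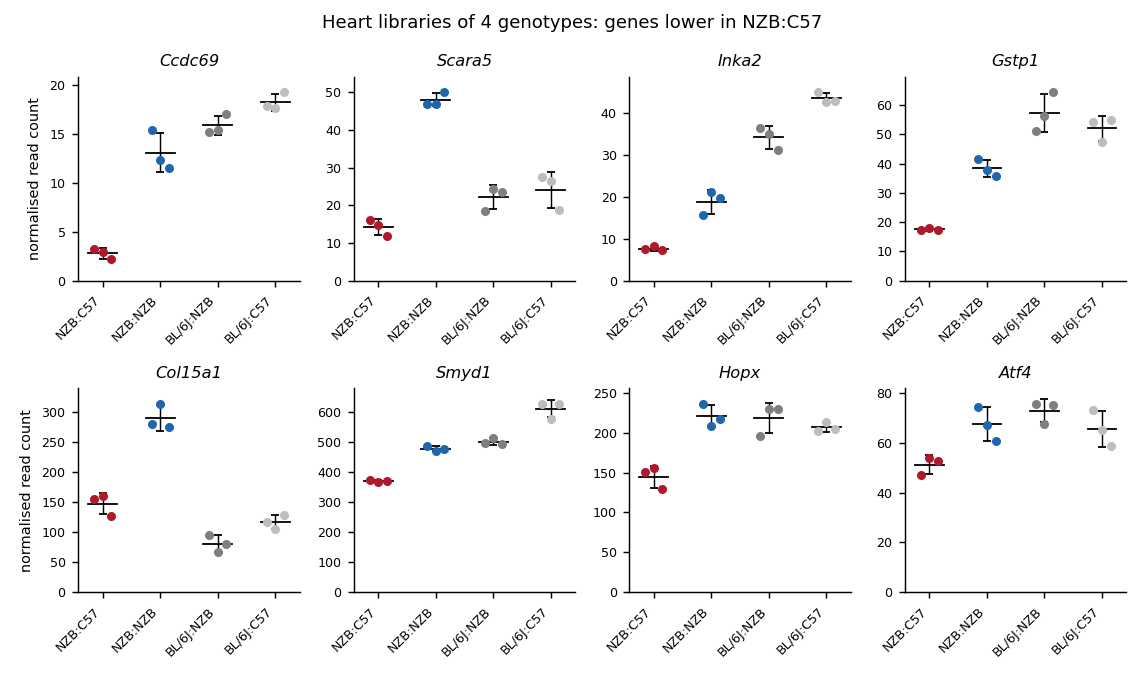
Each panel plots the normalised read count of a gene in all 12 hearts by genotype, with points for pools and a bar for the mean. The 3 NZB:C57 pools lie below the 3 NZB:NZB pools in all 8 panels, and below all 9 other hearts for Ccdc69, Scara5, Inka2, Gstp1, Smyd1, Hopx and Atf4, whereas the BL/6J hearts of Col15a1 lie in or below the NZB:C57 range.

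The difference between C57 and NZB mtDNA, taken by label, was tested between the nuclear genomes and between the tissues. Line and mtDNA cannot be told apart in this difference. C57 over NZB mtDNA in heart differed between the NZB and BL/6J nuclei for 1354 genes in the higher direction (9.81% of genes tested) and 196 in the lower (1.42%), at a limma adjusted p under 0.05. Of the genes called higher in NZB:C57 hearts 1242 were among them in either direction, and of the 399 called lower, 102. This test holds the same NZB:C57 and NZB:NZB hearts as the heart comparison, so for these genes it restates that difference in part. The BL/6J heart libraries carry another word in their titles than the NZB ones, so handling and nuclear genome cannot be told apart there. Between heart and liver of the NZB nucleus, 2424 genes differed in the higher direction (16.2%) and 1147 in the lower (7.66%), including 1691 of those called higher in heart and 337 of those called lower. Of these, 784 of the 1691 and 41 of the 337 had not passed the filter on low values in liver, so for them the tissue difference restates the heart difference. For the other 907 and 296 the tissue test holds the same NZB:C57 and NZB:NZB hearts, so it restates that difference in part. The tissue fit took heart and liver pools as independent.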

How the data were processed

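Polyadenylated RNA of 6 heart pools was compared, with the other 18 libraries as context. The deposited table holds 15323 genes in 24 library columns, 0 of them unmatched. Per the file headers, the authors deposited a normalised signal per gene and library. Aligner, counter and build are listed without roles in the submitters' processing notes as cutadapt 1.2.1, RSEM 1.2.3, Bowtie2 2.0.6, edgeR and GRCm38. In every column 100% of values were whole multiples of a constant within 0.01 reads, so reads were recovered for count tests, which the values themselves cannot enter.

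Genes entered a fit where 3 or more of its libraries had a value of 1 or more, and were tested with limma 3.58.1 (R 4.3.3) on log2(value + 1), with all 12 libraries of a tissue in 1 fit and Benjamini-Hochberg adjustment over all genes, at a threshold of 0.05. Replicate pools share a number across genotypes, which did not enter this fit. Alternatives were edgeR 4.0.16, DESeq2 1.42.0, other pseudocounts, filters and scalings, a replicate block, the 6 libraries alone, and each library left out. The tests were checked on simulated data. With 3 pools against 3, an exact permutation test of 1 value cannot go below p = 0.1.

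Symbols and positions are from GENCODE vM21 on GRCm38. Sequence sharing is the share of a gene's 31-base words, on either strand, that occur in another annotated gene's transcripts, and it is stated for genes described at length where it reached 10%. The sources used here do not say whether counting used strand, so overlapping and antisense genes are uncertain.

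The comparison, the 55 gene lists and the tests were chosen with earlier results of these data known. Genes named are called genes without overlap between pools: the 15 highest and 15 lowest changes, up to 3 of each list by smallest p, those with the same call in liver, the 5 smallest p of the tissue and nuclear genome differences, and the 10 highest levels of each genotype. Some genes meeting the rule are not reported here, and genes outside it are marked as such.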

Additional observations from a re-analysis of the deposited data

Results flagged for a closer look

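Between heart and liver of the NZB nucleus, the difference between NZB:C57 and NZB:NZB itself differed with a limma adjusted p under 0.05 for 2424 genes in the higher direction and 1147 in the lower, from a term for tissue in 1 fit of all 24 libraries. The 5 genes with the smallest p of this kind were Kcnj3, Trim54, Trim63, Asb10 and Mlf1, with heart minus liver differences of 4.21, 3.97, 4.02, 3.75 and 3.78 on the log2 scale. None of the 5 passed the filter on low values in liver, so the differences come almost wholly from heart.

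Between the NZB and BL/6J nuclei, the heart difference of C57 over NZB mtDNA, taken by label, was itself compared. It differed for 1354 genes in the higher direction and 196 in the lower, from the interaction of nuclear genome and mtDNA label. The 5 genes with the smallest p were Trim54 (3.74), Trim63 (3.73), Asb10 (3.46), Lmod3 (3.11) and Ndrg4 (2.89). Each value is the difference with the NZB nucleus minus that with the BL/6J nucleus on the log2 scale. The part of library handling in these differences was not tested.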

How the results depend on the processing

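The count of genes called in heart was 2190 and stayed within a factor of 1.5 under other pseudocounts, filters, DESeq2 size factors, edgeR, DESeq2, the 6 libraries alone and without genes sharing sequence, and between 1750 and 2022 with a library left out. Library totals, in place of the authors' scaling, gave 11047 in heart, 2886 in liver, 7985 for the tissue difference and 9135 for the nuclear genome difference. This scaling shifts the median of all genes in heart to -0.64. The tissue difference had 3571 calls, against 2106 with edgeR and 2137 with DESeq2, and 3086 to 3362 with a library left out. The liver comparison had 1064 calls, and 660 to 920 with a library left out, its lowest counts being without NZB:NZB liver 1 (660) and 2 (690), and the nuclear genome difference 1283 to 1687. The cause of these moves was not tested.

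Under library totals the sign turned for Rgs5 (-0.042), Oxct1 (-0.012), Myom2 (-0.38), Atp2a2 (-0.35), Tpm1 (-0.49), Atp5b (-0.61), Gja1 (-0.014), Gata4 (-0.46), Eno3 (-0.68), Cox4i1 (-0.68) and Cox7a1 (-0.20). With 1 library left out, values near zero also changed sign: Csrp3 ran from -0.13 to 0.020 (turned without NZB:NZB heart 1), Eno3 from -0.038 to 0.10 (turned without NZB:NZB heart 3) and Cox4i1 from -0.016 to 0.095 (turned without NZB:NZB heart 2 or 3).

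With the replicate block the counts were 2137 in heart, 981 in liver, 3372 for the tissue difference and 1482 for the nuclear genome difference. The numbers paired the hearts in part: same-numbered pools of both genotypes deviated together with correlations of 0.05, 0.13 and -0.03. NZB:C57 hearts 1 and 2 correlated best with the same number, and NZB:C57 heart 3 with NZB:NZB heart 1, at 0.08. Each NZB:C57 heart correlated best with the same-numbered NZB:C57 liver (0.11, 0.04 and 0.04), whereas of the NZB:NZB hearts only heart 2 did so with NZB:NZB livers (0.04).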
